A study of Mus musculus with 12 samples.

Results

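H3K9ac, the acetylation of histone H3 at lysine 9, was followed in mouse liver at 8 genes of fatty acid oxidation and ketogenesis: Cpt1a, Cpt2, Acadm, Ehhadh, Bdh1, Acot1, Pdk4 and Angptl4. A peak was assigned to a gene when it overlapped the gene body or the 5 kb on either side of the gene start in the GENCODE M21 annotation (mm10, GRCm38), and this stretch is called the locus. The 8 genes were chosen by name among 21911 protein-coding genes, and their loci held 100 of the 102889 peaks in the 6 lists. Merged across the lists, these peaks formed 26 of the 27334 acetylated regions of the series. The data were lists of peaks from chromatin immunoprecipitation and sequencing (ChIP-seq) of adult livers. There were 2 libraries from C57BL/6J (B6), the strain of the reference genome, and 2 from MSM/Ms (MSM), a line bred from wild Japanese mice, each from a separate mouse. The reciprocal crosses, F1 BM and F1 MB, had 1 library each, so their values carry no replicate error. The letters of their titles were read as mother first, B6 for F1 BM and MSM for F1 MB. No group carried an engineered allele, and no treatment of the living animals was described. Input libraries of the same groups were not analysed here.

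Fatty acids enter mitochondria as carnitine esters, are shortened by beta-oxidation to acetyl-CoA, and in fasted liver that acetyl-CoA is turned into ketone bodies for use by other organs. Many genes of this pathway are targets of PPARA, a nuclear receptor that binds fatty acids and, with its partner RXRA, recognises a direct repeat of the half-site AGGTCA with 1 base between the copies (DR1). H3K9ac marks active promoters and enhancers, and at active genes it typically covers the first nucleosomes downstream of the start.

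The libraries differed in how much was called. A list held between 11619 and 22968 peaks and covered between 6.28 and 16 Mb. The extremes were both B6, with replicate 1 the longest list and replicate 2 the shortest, followed by F1 BM (20173 peaks) and F1 MB (13235 peaks). No read counts came with the lists, so the number of reads behind each peak is unknown and absent peaks cannot be told apart from weak ones. The methods of the study state read totals for the libraries, which were not used here. The 7 hepatocyte markers checked (Alb, Apoa1, Ttr, Cps1, Serpina1a, Tat and Hnf4a) each had a peak in every library, whereas none of the 5 Kupffer cell markers had a peak in any. The stellate cell marker Dcn had a peak in F1 BM and the cholangiocyte marker Sox9 in B6 replicate 1, and the other 3 markers of each list had none. Of the 6 markers of other tissues, 5 had no peak, but the neuronal gene Rbfox3 had one in B6 replicate 1 (1462 bp), B6 replicate 2 (237 bp) and F1 BM (550 bp). All 4 endothelial markers had a peak in B6 replicate 1 and none in B6 replicate 2. Their summed length under peaks ran from 0 to 6571 bp in B6, from 956 to 2767 bp in MSM and from 1240 to 5726 bp in the hybrids, and their part in the results was not tested. Liver is a mixture of cells, so fewer cells of a type and less acetylation per cell cannot be told apart.

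Most acetylated regions of these genes lay downstream of the start. Of the 26 regions, 19 (73.1%) were wholly downstream of the annotated start, 4 held the start and 3 were wholly upstream, against 61.9% downstream among the 27352 pairs of a region and a coding gene locus. A locus reaches farther downstream than upstream. Within 5 kb on either side of the start, 15 of 22 regions (68.2%) were downstream, against 46.9% over all coding genes. A start domain, meaning peaks at most 500 bp apart joined and lying within 500 bp of the start, was found 40 times over the 8 genes and 6 libraries. In 33 of these 40 cases (82.5%) the whole domain was downstream of the start, against 45.4% of 44129 start domains over all coding genes. The domain held the start in 7 of 40 (17.5%), against 44.9% over all coding genes. A start in a gap between joined peaks counts as held. These shares depend on which transcript start is used, and genes and libraries are not independent replicates, so no test was made. No other coding gene starts within 5 kb of a member start, whereas the coding genes set beside them were not chosen that way. A neighbour's peak can thus count as upstream of, or over, the start of such a gene. Its effect on the shares was not tested. Cpt2, Acadm, Pdk4, Angptl4 and Acot1 had a start domain in all 6 libraries, which is 5 of 8 genes (62.5%) against 21.7% of coding genes. In at least 1 library all 8 had one, against 44.5% of coding genes.

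**Figure D1:**
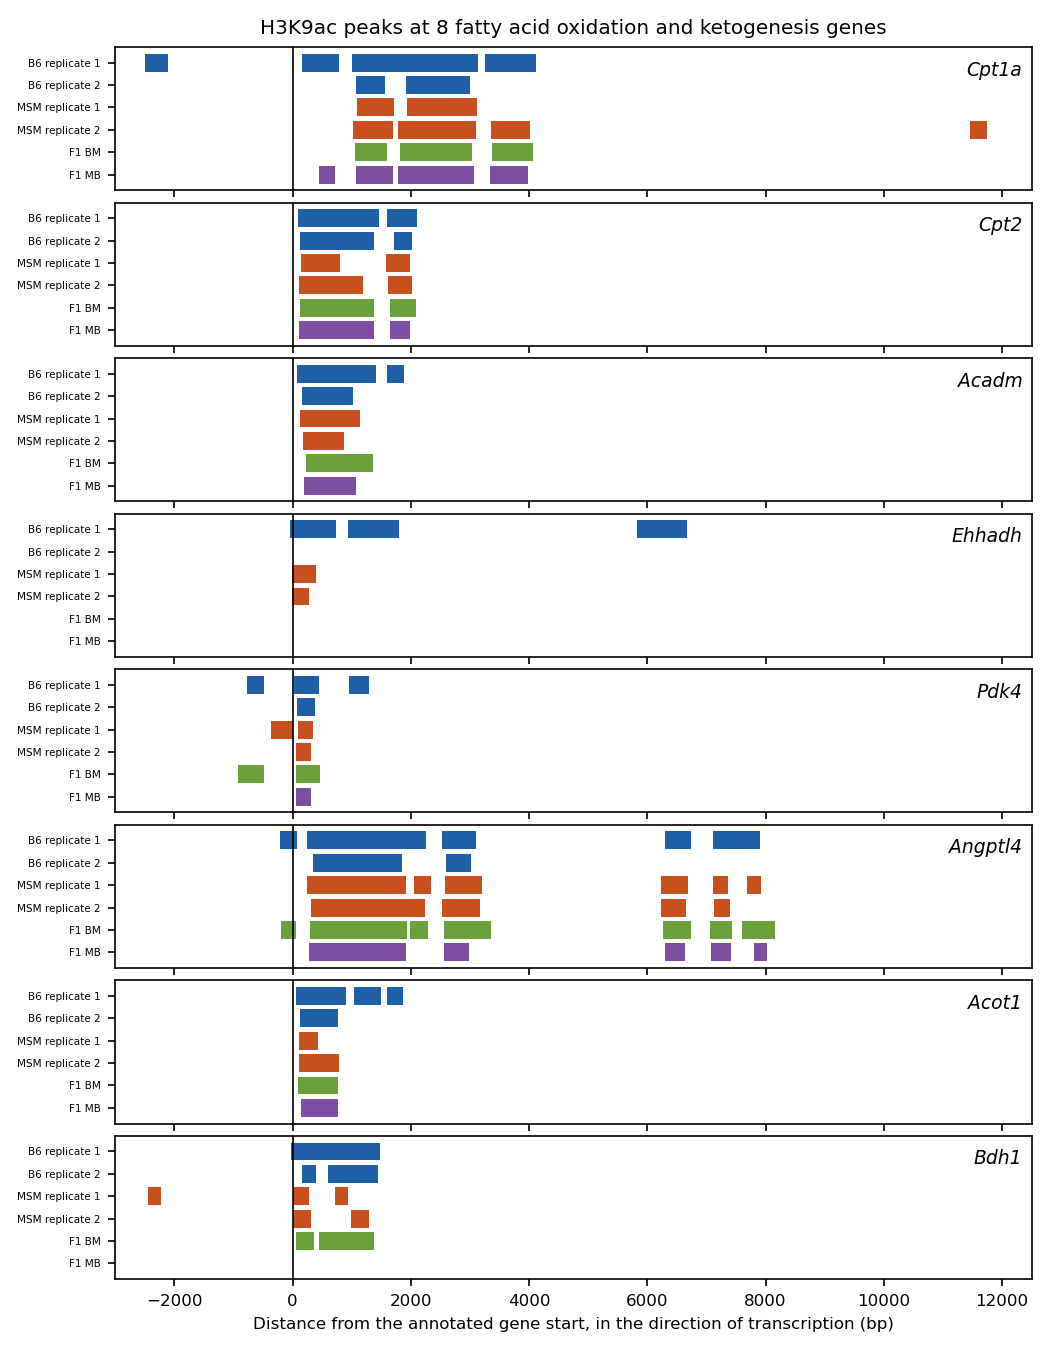
H3K9ac peaks of each library (rows, coloured by group) at the 8 genes, drawn against the distance from the annotated gene start in bp, in the direction of transcription. Bars are peaks and the vertical line is the start; the peaks shared by the 6 libraries lie to the right of the line, Cpt1a begins about 1 kb into the annotated gene, and Ehhadh and Bdh1 lack peaks in some libraries.

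Of the 26 regions, 8 (30.8%) had a peak in all 6 libraries, against 25.3% of the regions of the series, and 10 (38.5%) had a peak in exactly 1 library, against 30.6%. All 8 shared regions were downstream of the start, between 30 and 3364 bp from it, and belonged to 6 genes. B6 replicate 1 had the highest fold enrichment in all 8. Of the 10 regions in exactly 1 library, 7 were found in B6 replicate 1, 2 in MSM replicate 1 and 1 in MSM replicate 2. In the series, 56.1% of such single-library regions were from B6 replicate 1. Without B6 replicate 1, 19 regions remained and 6 were in exactly 1 library.

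**Figure D2:**
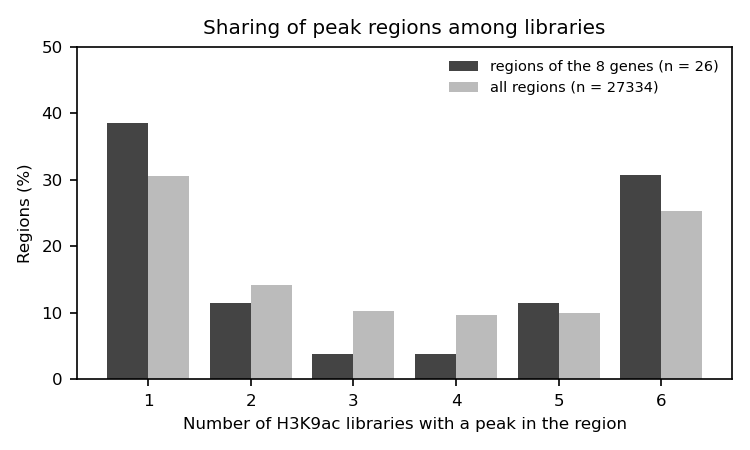
Share of regions in percent (vertical axis) by the number of H3K9ac libraries with a peak in the region (horizontal axis), for the 26 regions of the 8 genes (dark bars) and all 27334 regions (light bars). Both sets are highest at 1 and at 6 libraries, with 38.5% and 30.8% of the regions of the 8 genes.

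The promoter sequences of 4 genes are shown because the start used, the CpG content or the repetition of the sequence bears on the values that follow. They were taken from RefSeq (GRCm38.p6), run from 250 bases before the RefSeq start towards it on the strand of the gene, and were ended where GENCODE annotates a UTR. Capitals mark CpG dinucleotides.
Cpt1a (chr19:3323051-3323284, plus strand): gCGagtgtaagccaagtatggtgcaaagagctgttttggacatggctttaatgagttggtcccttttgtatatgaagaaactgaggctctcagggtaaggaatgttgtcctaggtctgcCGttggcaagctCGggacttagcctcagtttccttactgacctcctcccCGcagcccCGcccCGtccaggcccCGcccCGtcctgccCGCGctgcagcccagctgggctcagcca
Acadm (chr3:153944644-153944893, minus strand): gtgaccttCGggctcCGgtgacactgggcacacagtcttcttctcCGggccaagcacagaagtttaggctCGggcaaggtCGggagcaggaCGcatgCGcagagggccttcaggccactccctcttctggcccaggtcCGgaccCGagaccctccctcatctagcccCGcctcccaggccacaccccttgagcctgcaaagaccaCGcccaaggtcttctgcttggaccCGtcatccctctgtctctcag
Acot1 (chr12:84009252-84009489, plus strand): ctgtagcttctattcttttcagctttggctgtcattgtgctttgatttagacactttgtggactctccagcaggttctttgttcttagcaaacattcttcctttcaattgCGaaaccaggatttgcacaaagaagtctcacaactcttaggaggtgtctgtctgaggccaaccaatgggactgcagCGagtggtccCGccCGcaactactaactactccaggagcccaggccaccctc
Bdh1 (chr16:31422047-31422279, plus strand): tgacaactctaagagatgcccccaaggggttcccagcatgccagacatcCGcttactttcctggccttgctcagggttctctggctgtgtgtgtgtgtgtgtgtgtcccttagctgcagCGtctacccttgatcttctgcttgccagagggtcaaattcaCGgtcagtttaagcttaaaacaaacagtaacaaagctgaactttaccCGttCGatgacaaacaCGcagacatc

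These stretches held 10 CpG sites in Cpt1a, 12 in Acadm, 4 in Acot1 and 6 in Bdh1. The median over 32851 RefSeq promoters of 250 bases was 6, with quartiles of 2 and 16. Counted over 500 bp on either side of the GENCODE start, the order changed. Acot1 then had 73 CpG sites, more than 77.8% of coding genes, and Bdh1 had 15, more than 28.7%. The other 6 genes had between 31 and 55 CpG sites, around the median of 41 for coding genes.

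Cpt1a encodes carnitine palmitoyltransferase 1A, the enzyme of the outer mitochondrial membrane whose step controls the entry of long-chain fatty acids. The gene (chr19:3322334-3385733, plus strand) had 5 regions, of which only the one at chr19:3323345-3325463 was found in all 6 libraries. It overlapped the first exon, the first intron and annotated UTR sequence, and lay 1011 to 3129 bp from the GENCODE gene start. The RefSeq start of Cpt1a is 967 bp downstream of the GENCODE gene start, just before this region. With the GENCODE start, Cpt1a had a start domain only in B6 replicate 1 and F1 MB. With the RefSeq start, which was taken after seeing the data, it had one in all 6 libraries, and the count of genes with a start domain in every library went from 5 to 6 of 8.

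The length of the Cpt1a locus under peaks was 3977 and 1574 bp in B6, 1800 and 2946 bp in MSM, 2447 bp in F1 BM and 2845 bp in F1 MB. The B6 libraries enclosed all others, so the strains overlapped. The highest fold enrichment of a peak, which the peak caller gives as signal over background, was 11.9 and 5.75 in B6, 6.63 and 8.60 in MSM, 4.72 in F1 BM and 7.44 in F1 MB. B6 replicate 1 was again highest, and F1 BM was below every parental library. A second region in the first intron, 3262 to 4117 bp from the start, had a peak in B6 replicate 1, MSM replicate 2, F1 BM and F1 MB, and in MSM replicate 2 it held the highest peak of the gene.

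Cpt2 encodes carnitine palmitoyltransferase 2, which releases the acyl-CoA on the matrix side of the inner mitochondrial membrane. The gene lies at chr4:107903981-107923610 on the minus strand, and both of its regions were found in all 6 libraries. The first (chr4:107922151-107923527) covered the first exon and the beginning of the first intron, and the second (chr4:107921509-107922022) was wholly in that intron. The length under peaks was 1882 and 1562 bp in B6, 1072 and 1471 bp in MSM, 1703 bp in F1 BM and 1600 bp in F1 MB. Both B6 libraries were above both MSM libraries, and both hybrids lay within the range of the parents. The B6 mean of 1722 ± 226 bp exceeded the MSM mean of 1272 ± 282 bp (SD, n = 2 each), with a difference of -450.5 bp for MSM minus B6 against a pooled within-strain SD of 256 bp (two-sided exact permutation p = 0.33, the smallest the 6 assignments of 4 libraries can give). The highest fold was 8.53 and 7.48 in B6, 4.81 and 7.52 in MSM, 8.37 in F1 BM and 6.03 in F1 MB. MSM replicate 1 was lowest on both measures, and the strains overlapped in fold. The summit of the highest peak stayed within 61 bp over the 6 libraries, 508 to 569 bp from the start.

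Acadm encodes the medium-chain acyl-CoA dehydrogenase, which carries out the first step of each beta-oxidation round on medium-chain substrates. The gene (chr3:153922357-153944632, minus strand) had 1 region in all 6 libraries, at chr3:153943213-153944563 over the first exon and first intron, and a small intronic region in B6 replicate 1 only. Its length under peaks was 1641 and 855 bp in B6, 1018 and 687 bp in MSM, 1132 bp in F1 BM and 887 bp in F1 MB. The strains overlapped. The highest fold was 10 and 5.27 in B6, 3.98 and 4.93 in MSM, 5.20 in F1 BM and 4.43 in F1 MB. Both B6 libraries were above both MSM libraries, with means of 7.66 ± 3.38 and 4.46 ± 0.672 (SD, n = 2 each, two-sided exact permutation p = 0.33).

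Ehhadh encodes the peroxisomal bifunctional enzyme, which performs the second and the third step of beta-oxidation in peroxisomes. It was the gene with the fewest libraries called. The length under peaks of the locus (gene at chr16:21761287-21787807, minus strand) was largest in B6 replicate 1 (2497 bp), small in MSM (403 and 289 bp) and 0 in B6 replicate 2 and in both hybrids. The highest fold was 8.19 in B6 replicate 1, 3.34 in MSM replicate 1 and 3.73 in MSM replicate 2. The libraries without a peak were the 2 shortest lists and F1 BM, the second longest. The region at the start (chr16:21787067-21787847) held the first exon, and the other 2 regions were intronic and called in B6 replicate 1 alone. Ehhadh had 31 CpG sites around its start, fewer than the median coding gene.

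Bdh1 encodes 3-hydroxybutyrate dehydrogenase 1, which interconverts acetoacetate and 3-hydroxybutyrate in the last step of ketone body production. The gene lies at chr16:31422280-31458901 on the plus strand, and its main region at chr16:31422261-31423751 ran from 19 bp before to 1471 bp after the start, over the first exon and first intron. The length under peaks was 1491 and 1091 bp in B6, 709 and 589 bp in MSM, 1237 bp in F1 BM and 0 in F1 MB. Both B6 libraries were above both MSM libraries, F1 BM was between the B6 values, and F1 MB had no peak. B6 averaged 1291 ± 283 bp and MSM averaged 649 ± 84.9 bp (SD, n = 2 each), a difference of -642 bp for MSM minus B6 against a pooled SD of 209 bp (two-sided exact permutation p = 0.33).

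The fold at Bdh1 had the other order on average. It was 7.14 and 4.29 in B6, 6.80 and 9.47 in MSM and 3.81 in F1 BM, so that the strains overlapped and the highest value was in MSM. The form of the domain differed. In B6 replicate 1 a single peak covered the region, and in B6 replicate 2 and F1 BM a wide peak of 858 and 939 bp lay downstream of a narrow one. In MSM, narrow peaks of 275 and 289 bp sat next to the start, with a weaker peak of 216 and 300 bp farther downstream. The start domain was 1491 and 1288 bp wide in B6 and 934 and 289 bp in MSM (two-sided exact permutation p = 0.33). Among the 6 genes with a start domain in all 4 parental libraries, only Bdh1 had no overlap in width between strains. Over 5186 coding genes, 22.2% had no overlap in either direction, and 16.7% had B6 wider. Joining made the width in 2 of these libraries, B6 replicate 2 (peaks of 233 and 858 bp) and MSM replicate 1 (275 and 216 bp). In B6 replicate 1 the domain was a single peak, and in MSM replicate 2 the second peak lay beyond the joining distance. Taken alone, the B6 replicate 2 peak nearest the start (233 bp) was narrower than those of MSM (275 and 289 bp), so as single peaks the strains overlapped. A second RefSeq start of Bdh1, 6473 bp downstream of the GENCODE start, had no peak in any library.

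Acot1 encodes a cytosolic acyl-CoA thioesterase that releases free fatty acids from acyl-CoA. The gene (chr12:84009490-84018371, plus strand) had 1 region in all 6 libraries, at chr12:84009548-84010397 over the first exon and first intron, and 2 intronic regions in B6 replicate 1 only. Its length under peaks was 1570 and 636 bp in B6, 320 and 682 bp in MSM, 684 bp in F1 BM and 630 bp in F1 MB. B6 replicate 1 was the high library and MSM replicate 1 the low one, and the strains overlapped. The highest fold was 9.79 and 6.15 in B6, 5.75 and 6.82 in MSM, 4.15 in F1 BM and 5.64 in F1 MB. Both hybrids were below all parental libraries. Acot1 has near copies in the genome. Of the 50-base words of the reference, the length of a read, 74.2% of those starting in the first 1000 bp downstream of the Acot1 start occurred once in the genome, against 84.9% at Bdh1 and 97.8% to 100% at the other 6 genes. Reads from words that occur more often could be placed at another copy, so the values of Acot1, and those of Bdh1 near its start, are uncertain.

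Pdk4 encodes pyruvate dehydrogenase kinase 4, which switches off pyruvate dehydrogenase and so spares glucose when fatty acids are burnt. The gene (chr6:5483351-5496309, minus strand) had 1 region in all 6 libraries, at chr6:5495843-5496279 over the first exon and first intron. It was the narrowest of the 8 shared regions (437 bp), and the summit of its highest peak varied by 25 bp over the 6 libraries, between 174 and 199 bp from the start. The length under peaks was 1051 and 308 bp in B6, 629 and 241 bp in MSM, 854 bp in F1 BM and 245 bp in F1 MB. Each parental strain had a high and a low library, and the hybrids were split in the same way. The highest fold was 9.06 and 4.24 in B6, 4.75 and 5.28 in MSM, 3.69 in F1 BM and 4.38 in F1 MB. Pdk4 had 1 upstream region, in B6 replicate 1 and F1 BM, 1 region over the start in MSM replicate 1 and a further downstream region in B6 replicate 1 alone.

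Angptl4 encodes a secreted inhibitor of lipoprotein lipase that limits the uptake of circulating fat into tissues. It had the highest fold of the 8 genes in every library but B6 replicate 2, where Cpt2 was higher. The gene lies at chr17:33773750-33781830 on the minus strand, and its 5 regions spread from the start to the end of the gene. Its length under peaks was 4126 and 1932 bp in B6, 3532 and 3284 bp in MSM, 4304 bp in F1 BM and 3003 bp in F1 MB, which was 14.8% to 32.9% of the locus. The highest fold was 15.7 and 7.36 in B6, 7.20 and 13.9 in MSM, 8.53 in F1 BM and 10.5 in F1 MB. Each strain had 1 low and 1 high library. Within its own list this peak was above 81.7% to 98.7% of all peaks. Averaged over the 6 libraries, the highest fold of Angptl4 (10.5) was above that of 93.2% of the 6246 coding genes with a peak in every library, whereas Pdk4 (5.23) was above 19.6% and Acadm (5.64) above 29.7%.

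Regions 2 and 3 of Angptl4 (chr17:33779486-33781592 and chr17:33778466-33779308) overlapped the first 4 exons and were found in all 6 libraries. The other 2 downstream regions overlapped the last exon and were found in every library but B6 replicate 2. The region over the start itself had a peak in B6 replicate 1 and F1 BM, the longest lists.

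**Figure D3:**
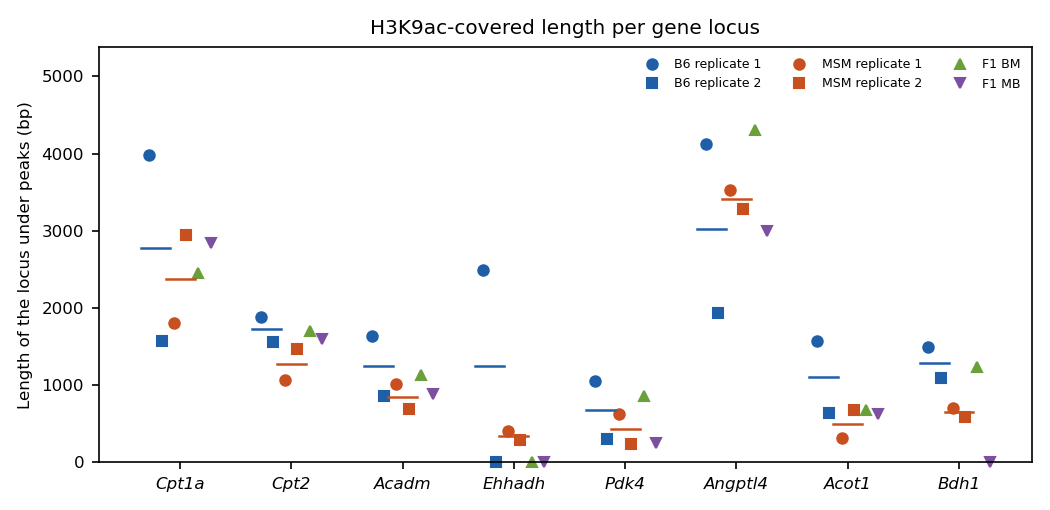
Length of each gene locus under H3K9ac peaks in bp (vertical axis) for the 8 genes, with 1 symbol per library and horizontal bars for the mean of the 2 libraries of B6 and of MSM. The B6 symbols are above both MSM symbols at Cpt2 and Bdh1, and the symbols at 0 are libraries without a peak.

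**Figure D4:**
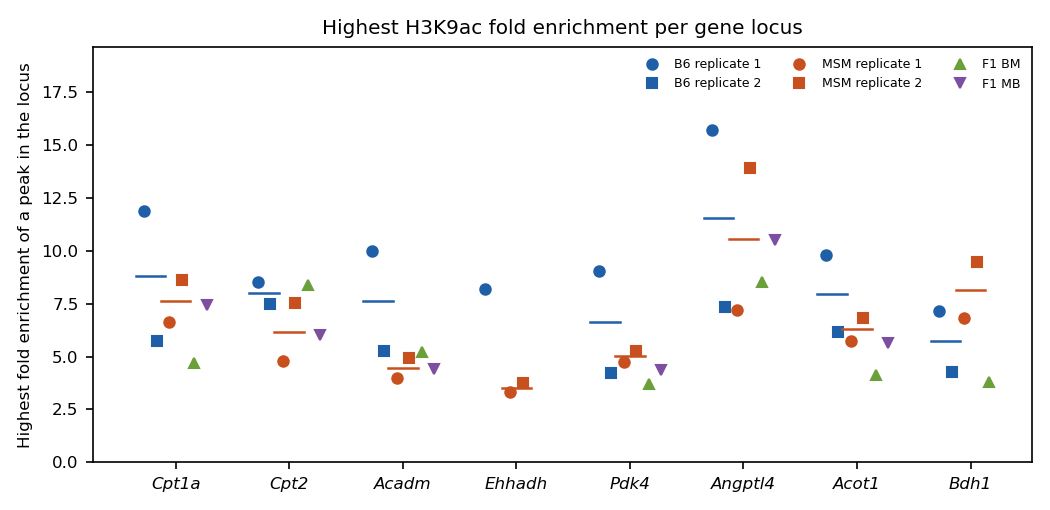
Highest fold enrichment of a peak in each gene locus (vertical axis, linear) for the 8 genes, with 1 symbol per library and horizontal bars for the mean of B6 and of MSM where both libraries had a peak. Angptl4 reaches 15.7, and the B6 symbols are above both MSM symbols at Acadm.

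The strains were compared over all coding genes with a peak in all 4 parental libraries, 6706 genes, of which 7 are members (Ehhadh had no peak in B6 replicate 2). Values were log2-transformed, centred on the median of each library and fitted with limma. For the length under peaks, 0 of 7 members passed an adjusted p of 0.05, against 31 of 6706 genes (0.462%), and 2 of 7 had an unadjusted p under 0.05, against 771 genes (11.5%). Acot1 had a log2 difference of MSM minus B6 of -1.02 ± 0.45 (SE, limma adjusted p = 0.399), and Bdh1 of -0.90 ± 0.39 (adjusted p = 0.391). Both sizes moved with the libraries and lists used. Acot1 was -0.48 without MSM replicate 1, -1.56 without MSM replicate 2 and -0.52 with lists cut to equal peak number or equal length. Bdh1 was -0.55 without B6 replicate 2, -2.04 with equal peak number and -1.92 at a −log10 q of at least 5. The difference was -0.47 ± 0.52 for Pdk4, -0.42 ± 0.37 for Acadm, -0.37 ± 0.37 for Cpt2, -0.04 ± 0.31 for Cpt1a and 0.35 ± 0.26 for Angptl4 (SE), with adjusted p-values of 0.687 to 0.979. For 4 of these 5 genes the size or sign changed with 1 library. Leaving 1 library out turned Cpt1a to 0.31 (MSM replicate 1) and 0.05 (B6 replicate 1), Cpt2 to 0.07 (B6 replicate 2) and Pdk4 to 0.23 (MSM replicate 2). Acadm ran from -0.71 without MSM replicate 1 to -0.13 without MSM replicate 2, whereas Angptl4 stayed between 0.29 and 0.41 with any library left out and was -0.15 within 1 kb of the start. The counts of libraries above one another used the lengths before centring. Both B6 libraries were above both MSM libraries in 2 of 7 members, Cpt2 and Bdh1, against 14.1% of all genes. The opposite held for 0 of 7, against 4.52%. With B6 replicate 2 left out, the remaining B6 library, the longest list, was above both MSM libraries in all 8 genes, against 84.1% of coding genes compared in the same way. With MSM replicate 1 left out, both B6 libraries were above the remaining MSM library in 4 of 7, against 23.9%. The members with B6 above MSM numbered 2 without B6 replicate 1 and 3 without MSM replicate 2. For these 2 omissions the share over all genes was not computed. The median difference was -0.42 over the 7 members and 0.01 over all genes tested.

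For the highest fold, 0 of 7 members passed, against 3 of 6706 genes (0.0447%), and 1 of 7 had an unadjusted limma p under 0.05, against 532 genes (7.93%). It was Acadm, with a log2 difference of -0.68 ± 0.31 (SE, limma adjusted p = 0.592). Bdh1 had an estimate of 0.57 ± 0.31 (SE, adjusted p = 0.66), and the other 5 lay between -0.38 and -0.07 with all libraries. Without MSM replicate 1, Angptl4 turned to 0.39 and Cpt1a to 0.08, and without B6 replicate 1 they were 0.08 and 0.03. Acot1, at -0.28 with all libraries, ran from -0.39 (without MSM replicate 2) to -0.17 (without MSM replicate 1). With a library left out, Bdh1 ran from 0.34 to 0.80, the lower without MSM replicate 2, Cpt2 from -0.69 (without MSM replicate 2) to -0.07 (without MSM replicate 1), and Pdk4 from -0.43 (without B6 replicate 2) to -0.12 (without B6 replicate 1). In the folds before centring, both B6 libraries were above both MSM libraries in 1 of 7 members, Acadm, against 10.8% of genes. The opposite held for 0 of 7, against 8.59%. With B6 replicate 2 left out, B6 was above both MSM libraries in 7 of 8 members, against 67% of genes. With MSM replicate 2 left out, B6 was above MSM in 4 of 7, against 22.9%. The count was 1 without B6 replicate 1 and 1 without MSM replicate 1, where the share over all genes was not computed. The median was -0.28 over the members and 0.01 over all genes. The 95% intervals of the members were wide, reaching from -1.99 to 1.21 over both measures, and in simulated data of this design 0% of genes changed by 1 on the log2 scale were recovered, so differences of that size were not detectable.

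**Figure D5:**
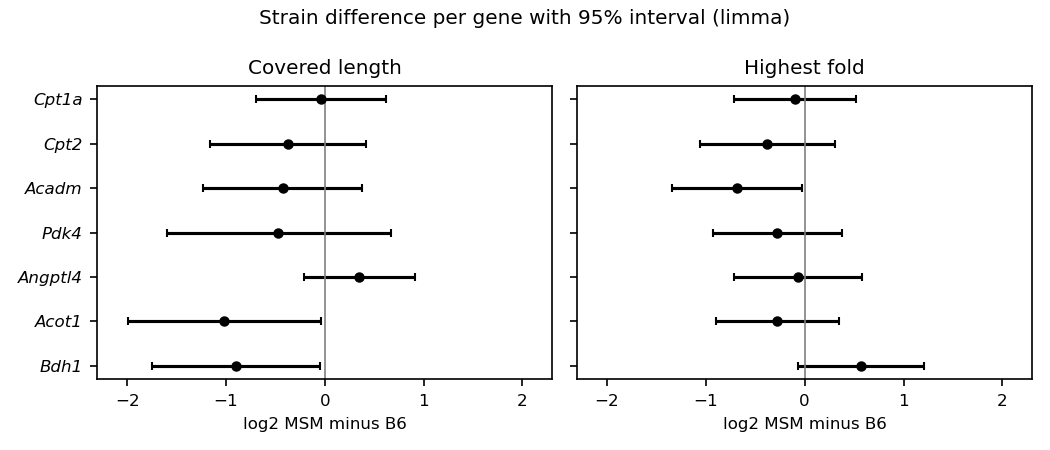
Log2 difference of MSM minus B6 for the 7 members tested (points) with 95% intervals from limma (bars), for the length under peaks on the left and the highest fold on the right. The intervals of Acot1 and Bdh1 on the left and of Acadm on the right end just below 0 before adjustment, and no member passed after adjustment.

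The position of the highest summit was compared after seeing the data. It was 860 and 893 bp from the start of Acadm in B6, 310 and 314 bp in MSM, 830 bp in F1 BM and 401 bp in F1 MB. At Acot1 it was 646 and 633 bp from the start in B6, 232 and 286 bp in MSM, 274 bp in F1 BM and 303 bp in F1 MB. In both genes the B6 summits were the more distant ones, F1 BM was near B6 at Acadm and near MSM at Acot1, and F1 MB was near MSM at both. Over the 7 members, both B6 summits were farther downstream than both MSM summits in 4, against 19.7% of genes, and nearer in 1, against 19.3%. The distance between the strains was 546 bp at Acadm and 347 bp at Acot1, and at Pdk4 and Bdh1 it was 6 and 10 bp. At Cpt1a, where the MSM summits were the more distant ones, it was 158 bp. A distance of at least 300 bp was found in 2 of 7 members and in 7.81% of genes.

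In length under peaks, F1 BM was within the range of the 4 parental libraries at 6 of 8 genes, above it at Angptl4, against 16.5% of genes with a peak in all 5 libraries compared, and without a peak at Ehhadh. F1 MB was within it at 6 genes and without a peak at Ehhadh and Bdh1. In highest fold, F1 BM was below the parental range at 4 of 7 genes (Cpt1a, Pdk4, Acot1 and Bdh1), against 61.6% of coding genes, and F1 MB at 1 of 6 (Acot1), against 30.9%. The median fold of all peaks was lowest in F1 BM, at 3.38 against 4.49 to 5.23 in the other lists.

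DR1 was searched as AGGTCA, any 1 base, AGGTCA on both strands with up to 2 mismatches. None of the 26 windows of 300 bp around the strongest summit of each region held a match, against 3.67% of the 27334 windows of the series. With windows of 600 bp, 3 of 26 (11.5%) held one, against 9.34%. Over the whole loci, searched after seeing the data, 59 matches were found in 8 of 8 genes, against 91% of coding gene loci with at least 1. The density was 248 matches per Mb, against 129 per Mb of the whole genome, and the density over coding gene loci alone was not computed. Of the 59, 26 lay in Cpt1a, where 5 overlapped each other in a single run, 14 lay wholly in sequence that the RefSeq genome marks as repeats, 43 lay wholly outside it, and 3 lay in or touched an acetylated region. With at most 1 mismatch, 10 matches were found in 4 of 8 genes, against 45.9% of loci, and 8 of the 10 lay wholly in repeats. The regions made up 8.40% of the locus length, and 16.1% of their bases were marked as repeats, against 13% in all regions of the series.

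The sequences below show the 3 matches that a peak of at least 1 library reached, all in Angptl4, then the other match with 1 mismatch outside repeats, in Cpt1a, and an exact match in Bdh1. They are written on the strand of the gene from GRCm38, with the 13 bases of the match in capitals.
Angptl4, 7414 bp from the start in the last exon (chr17:33774396-33774424): cacccaaaAGGTCAAAGGACAgaacagat
Angptl4, 7445 bp from the start in the last exon (chr17:33774365-33774393): cgcaaagtTGGCCTTTGACCAccacatac
Angptl4, 2521 bp from the start in an intron (chr17:33779289-33779317): tcccccagTGACCTTTCTCCTactttccc
Cpt1a, 19146 bp from the start in an intron (chr19:3341472-3341500): attcgtgtGGGTCAGAGGTCAgccgtgat
Bdh1, 2669 bp from the start in an intron (chr16:31424941-31424969): acacttgtAGGTCAGAGGTCAactttagg

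The first, with 1 mismatch, lay wholly under a peak in B6 replicate 1 and F1 BM and partly in F1 MB, and no MSM peak reached it. The next, with 2 mismatches on the opposite strand, was under a peak in B6 replicate 1 alone. The intronic match of Angptl4, with 2 mismatches on the opposite strand, was partly covered in B6 replicate 1 and MSM replicate 2 and in no other library. The Cpt1a match had 1 mismatch and was 7399 bp from the nearest region, and the exact Bdh1 match lay in a repeat 1198 bp from the nearest region. A match of letters is not a bound site.

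Other genes of the pathway were read from a list of 63 genes. A peak in all 6 libraries was found at 50 of them (79.4%), against 6 of the 8 members (75.0%) and 28.5% of coding genes. By group, this held for 15 of 17 genes of mitochondrial beta-oxidation, 10 of 10 of peroxisomal oxidation, 5 of 7 of uptake and activation, 2 of 4 of the carnitine shuttle, 4 of 6 of ketone body metabolism, 3 of 5 further thioesterases and 11 of 14 of the fasting and PPARA axis. Cpt1c, the carnitine palmitoyltransferase of brain, Oxct1, the ketone-using enzyme that liver lacks, and Pdk3 had no peak in any library. The highest mean folds were those of Rxra (15.4), the partner receptor of PPARA, the peroxisomal oxidase gene Acox2 (13.5), Ppara itself (13.2), the fatty acid transporter gene Slc27a2 (12.5), the phosphatidate phosphatase gene Lpin1 (12.1) and the peroxisomal enzyme gene Hsd17b4 (11.3), each above Angptl4 (10.5). Of the 53 list genes that could be tested, 0 passed limma's adjusted p for length under peaks and 0 for fold, and 13 and 4 had an unadjusted p under 0.05, where the shares over all genes were 11.5% and 7.93%. Their median log2 difference of MSM minus B6 was -0.07 for the length and 0.09 for the fold.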

How the data were processed

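H3K9ac ChIP-seq peak lists of 6 livers were used, grouped and numbered by their titles. Per the labels, livers were fixed with formaldehyde and sequenced as 50-bp pairs. The authors' methods name Bowtie 2 and mm10, whereas the submitters' processing notes list Trim Galore, HISAT2, SAMtools, MACS2 and the builds mm10 and GRCm38. Which aligner made the lists was not settled here. MSM reads were placed on B6 sequence, so reads over diverged sequence could be lost. Peaks were called per library. The deposited lists give for each peak a fold enrichment (a linear ratio of signal over background), a p-value and a q-value as −log10, all from the authors' peak caller. The deposited score, the whole part of a multiple of the −log10 q, was not used. The fold of a weak list is not scaled to that of a strong one, so values were centred on library medians for the limma fits. The counts of libraries above or below others, the permutation tests and the comparisons with the parental range used uncentred values. They therefore carry the differences in list size.

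The members and lists were chosen with earlier results of these data known. Length under peaks and highest fold per locus were computed with Python 3.11.15, numpy 2.4.6 and pandas 2.3.3, and fitted with limma 3.58.1 in R 4.3.3 (eBayes with trend, Benjamini-Hochberg adjustment over 6706 genes, threshold 0.05). GENCODE M21 gave 1 start per symbol, that of the longest gene. Genes named beyond the members were, from the pathway list, those called, those without any peak and the 6 with the highest mean fold. No other coding gene starts within 5 kb of a member start. RefSeq promoters were found for 7 members, and for Angptl4 none was used. Functions were tested on simulated data. In simulations with 200 of 6706 genes changed by 2 on the log2 scale, 43.0% (length) and 65.5% (fold) were recovered. Figures were drawn with matplotlib 3.10.9. Alternatives were lists cut to the same number of peaks or covered length, a −log10 q of at least 5, other windows, no centring, a pseudocount (1 for fold, 100 bp for length), the replicate block and leaving out each parental library.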

Additional observations from a re-analysis of the deposited data

How the results depend on the processing

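No member that could be tested passed the adjusted threshold in an alternative setting of either measure. Only 4 could be tested with the same covered length (not Acadm, Pdk4 or Bdh1), 6 with the same number of peaks (not Pdk4) and 6 within 1 kb (not Cpt1a). Over these settings the lowest adjusted p of a member ran from 0.138 to 1 for the length under peaks and from 0.489 to 1 for the fold. Of 158 recomputed member differences, 147 kept their direction. This count includes the replicate block, which leaves every difference as it was. It also includes no centring, which shifted all differences alike, by -0.08 for length and -0.03 for fold. At Cpt2, Acadm, Pdk4, Acot1 and Bdh1 the window of 5 kb gave the same length difference as the locus. The count is therefore not a measure of stability. The 31 genes called for length became 0 with lists cut to the same number of peaks, 0 with the same covered length, 14 at a −log10 q of at least 5, 0 within 1 kb of the start, 6 without centring and 67 with a pseudocount for genes peaked in at least 1 parental library, and 0 to 39 when a parental library was left out. The 3 called for fold became 0 with the same number of peaks, the same covered length, 1 kb, no centring or percentiles, and 0 to 27 with a library left out. With a replicate block 160 and 31 genes were called, although same-numbered libraries did not deviate together (correlations of -0.0209 and -0.0244), so the numbers do not pair the libraries. The cause of these changes was not tested.

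The log2 difference of Cpt1a in length turned to 0.14 with the same number of peaks and 0.15 with the same covered length, and ran from -0.39 to 0.31 with a library left out, being 0.05 without B6 replicate 1 and 0.31 without MSM replicate 1. That of Angptl4 turned to -0.15 within 1 kb. Cpt2 ran from -0.81 to 0.07, positive without B6 replicate 2, and Pdk4 from -1.17 to 0.23, positive without MSM replicate 2. In fold, Cpt1a ran from -0.27 to 0.08, with 0.03 without B6 replicate 1 and 0.08 without MSM replicate 1, and Angptl4 from -0.53 to 0.39, with 0.08 and 0.39 without the same libraries.

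With the same covered length, 3 genes instead of 5 had a start domain in all libraries, 4 instead of 8 regions were in all libraries and 1 instead of 10 in exactly 1. None (0) had a peak over the start itself in all libraries. Regions in exactly 1 library numbered 6 with the same number of peaks and 6 to 10 with a library left out. Genes whose start domain widths did not overlap, 1 in the report, were 2 with the same covered length, 0 at the stricter q, 2 without joining and 2 to 7 with a library left out. The 7 were 7 of 7 without B6 replicate 2, where 86.2% of coding genes did not overlap either. The share was 34.5% with the same covered length, 24.9% without joining and 39.3% to 78.8% without another library. Bdh1, the 1 gene of the report, could not be compared with the same covered length and overlapped without joining. The 2 without joining were Cpt2, B6 wider (1377 and 1250 against 668 and 1070 bp), and Angptl4, MSM wider (1678 and 1936 against 288 and 1509 bp). The genes with both B6 libraries above both MSM libraries in length, 2 in the main setting, were counted again. They numbered 1 with the same covered length, 1 at the stricter q and 1 within 1 kb. With a library left out they numbered 2 to 8, the 8 without B6 replicate 2, where 84.1% of coding genes did the same. With the deposited lists the share over all genes was 14.1%. For the same covered length, the stricter q and 1 kb it was not computed. Those counts are therefore not read as a result about the members. In fold, genes with both B6 libraries above both MSM libraries numbered 0 with the same covered length, where Acadm could not be compared. They numbered 1 to 7 with a library left out, the 7 without B6 replicate 2, where 67% of genes did the same. With the deposited lists the share over all genes was 10.8%, and for the same covered length it was not computed. DR1 matches were 3 in windows of 600 bp and, chosen after seeing the data, 10 (at most 1 mismatch) and 59 (at most 2) in whole loci. Without read counts, the depth limits on missing peaks could not be computed.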
